A study of Salix matsudana with 3 samples.

Results

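The miR160 family was represented by 6 of 205 miRNA entries in small RNA data of Salix matsudana, the Chinese willow, and by 45 of 981 miRNA and site pairs in degradome data, each of which joins an entry to a position where a transcript was cut. Members were taken by name, as every entry whose family number is 160, with no measured value used. Plants were 30 days old and the RNA came from roots and stems. There was 1 small RNA library from untreated plants and 1 from plants held in 100 mmol per litre NaCl over 2 days, so salt and elapsed time cannot be told apart. The degradome, a library of cleaved messenger RNA ends, was made once from a mixture of RNA of both conditions and holds no comparison between them. How many plants entered a library and how roots and stems were combined was not stated in the labels. A shift in the mix of organs, more or fewer cells of a type and more or less miRNA per cell cannot be told apart.

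miR160 is one of the oldest conserved plant miRNA families. Its 5p arm pairs almost perfectly with the messenger RNAs of a class of repressive auxin response factors (ARFs), transcription factors that bind auxin response elements, and guides ARGONAUTE1 to cut them. In Arabidopsis the known targets are ARF10, ARF16 and ARF17, and this control is known from root cap formation, lateral rooting, seed germination and leaf shape. The 3p arm is the strand of the processed duplex that is usually discarded.

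The 6 entries carried 5 distinct mature sequences, since the 5p entries ptc-miR160e-5p_L+1R-1 and ahy-miR160-5p_L+1R-1 were identical. All had 21 bases. They are shown because the cleavage data turn on how the 5p forms line up, and bases 2 to 8, the seed, are in capitals.
ptc-miR160a: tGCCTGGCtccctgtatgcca
ptc-miR160e-5p_L+1R-1 and ahy-miR160-5p_L+1R-1: cTGCCTGGctccctgaatgcc
ptc-miR160b-3p: gCGTATGAggagccatgcata
ptc-miR160e-3p: gCATGAGGggagtcgagcagg
ahy-miR160-3p_L-1R+1_1ss7AN: cATGANGGgagtcacgcaggc
The 5p forms overlapped by 20 bases with 19 identical. Against ptc-miR160a, with positions counted from 1 at its 5′ end, the other form had the substitution T15A. It also started 1 base earlier, with an extra C, so its seed window was shifted by 1 base and the 5p forms shared no seed as listed. Each 3p sequence had a seed of its own, and that of the ahy entry contained an undetermined base.

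The deposited table placed ptc-miR160a and ptc-miR160b-3p on a single hairpin of 98 bases, at positions 234 to 331 of contig c18781_f1p0_2573_2_3kb. The contig was not annotated further. The hairpin is shown because the strand balance described below concerns its arms, which are in capitals.
ptc-miR160a hairpin: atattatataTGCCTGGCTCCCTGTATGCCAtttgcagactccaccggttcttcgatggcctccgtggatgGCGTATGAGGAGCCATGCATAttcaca
RNAfold predicted a minimum free energy of -46.0 kcal per mol with 35 base pairs. Of the 21 bases of the 5p arm, 17 were predicted to pair with the 3p arm, and each arm extended 2 bases beyond the other at its 3′ end, the usual shape of a Dicer-cut duplex. The other 4 entries carried precursor numbers, used below to pair arms, but no hairpin of theirs was folded here.

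Levels are given in RPM, a sequence's reads over all reads listed in the library's miRNA table, times 1000000. Those totals were 4622984 reads without salt and 734026 with salt, so the untreated library was 6.30-fold deeper. With 1 library per condition there was no test between conditions and no replicate check, and the 95% intervals beside fold values cover counting error only. An entry was called when log2 of the ratio of RPM + 1 passed 2-fold, among entries with a mean of at least 10 RPM.

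The guide strands of miR160 were higher in the salt library, and so was one passenger strand, while another was lower but within 2-fold. The main guide strand, ptc-miR160a, had 1854 untreated and 1850 salt reads. These nearly equal counts came from libraries of unequal depth, and correspond to 401 RPM without salt and 2520 RPM with it. Its share was thus 6.28-fold higher with salt (5.89 to 6.71), or 2.65 on the log2 scale.

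The second 5p form, listed under the names ptc-miR160e-5p_L+1R-1 and ahy-miR160-5p_L+1R-1 with the same counts, had 132 untreated and 86 salt reads. That is 28.6 RPM against 117 RPM, a 4.10-fold higher share with salt (3.09 to 5.42). Both 5p forms were therefore higher with salt, and the interval of the second lies below that of the first. Counting each distinct sequence once, ptc-miR160a made up 93.4% of 5p reads in the untreated library (exact 95% interval 92.2 to 94.4) and 95.6% in the salt library (94.5 to 96.4). The 5p arm of the family thus consisted almost wholly of a single sequence in either condition.

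Among the passenger strands, ptc-miR160b-3p, from the same hairpin as ptc-miR160a, had 23 untreated and 74 salt reads. Its levels were 4.98 RPM and 100.8 RPM, a 20.3-fold higher share with salt (12.5 to 33.9). In contrast, ptc-miR160e-3p had 298 untreated and 30 salt reads. Its level was 64.5 RPM without and 40.9 RPM with salt, 1.58-fold lower (1.08 to 2.38), which did not pass 2-fold. The last entry, ahy-miR160-3p, had 1 untreated read and 0 salt reads. It stayed below the level minimum, and a count of 0 allowed up to 4.09 RPM in the salt library.

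**Figure D1:**
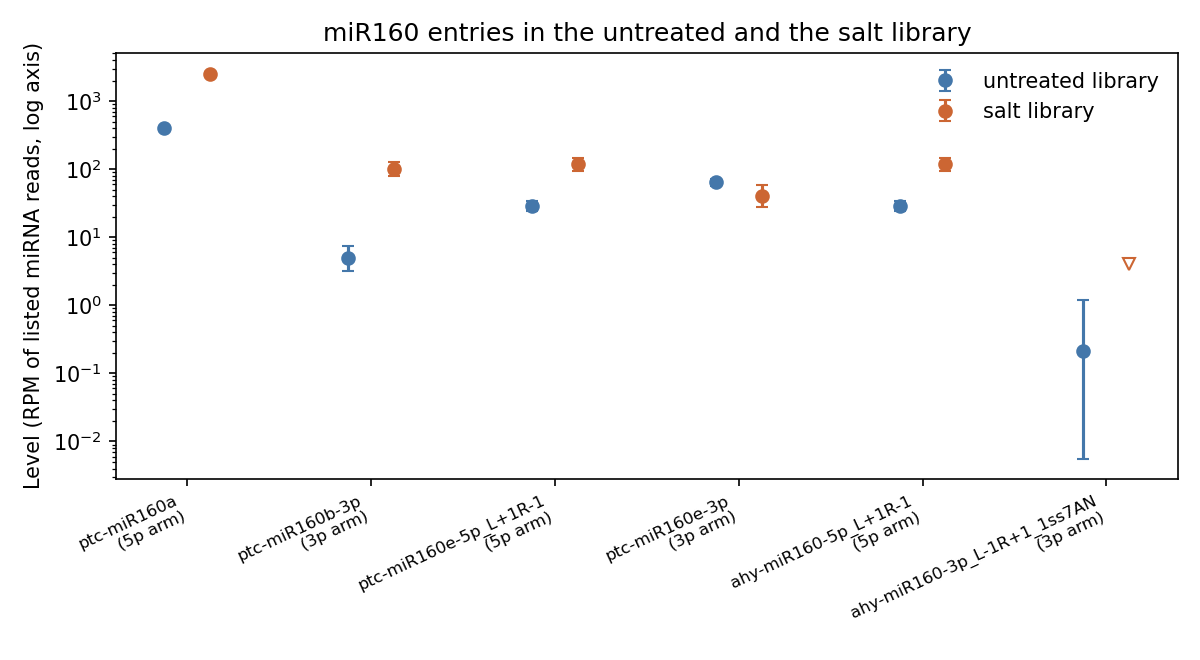
Level of each miR160 entry in RPM of listed miRNA reads (log axis) in the untreated and salt libraries; points are single libraries, bars are exact 95% counting intervals, and the open triangle marks the level that a count of 0 allows. The 5p entries and ptc-miR160b-3p are higher in the salt library, while ptc-miR160e-3p is at 64.5 RPM untreated and 40.9 RPM with salt.

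In all, 5 of 6 entries reached the level minimum, of which 4 were at least 2-fold higher and 0 lower. Over distinct sequences this was 3 of 4. Both counts include ptc-miR160b-3p, at 4.98 RPM untreated and 100.8 RPM with salt. It reached the minimum, a mean of both libraries, only through the library where it was high, so its call is partly built into the filter. Across all 115 entries tested, 32.2% were called higher and 13.0% lower. The median log2 ratio was 2.00 over the 5 miR160 entries and 0.33 over all entries tested. The 2.00 is the value of the second 5p form, which is counted there under both of its names. The 4 called entries stayed at least 2-fold higher under 6 ways of scaling the libraries. Their lowest log2 ratios came when the 5 most abundant entries were left out of the total, at 1.67 for ptc-miR160a, 3.32 for ptc-miR160b-3p and 1.06 for the other 5p form. That scaling shifted the median of all tested entries by -0.96. ptc-miR160e-3p stayed below 0 under all 6, from -1.63 to -0.43, and passed 2-fold lower under 2 of them.

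Comparing arms within a library removes the scaling between libraries. On the ptc-miR160a hairpin the 3p arm held 1.23% of the pair's reads in the untreated library (exact 95% interval 0.778 to 1.83) and 3.85% in the salt library (3.03 to 4.80). The ratio of 3p to 5p reads was thus 3.22-fold higher with salt (1.99 to 5.42). Whether other hairpins also yield the ptc-miR160a sequence was not tested, so its reads may not all come from this hairpin. The ptc-miR160e pair, which shares a precursor number in the table, went the other way and changed its dominant arm. Its 3p arm held 69.3% of reads in the untreated library (64.7 to 73.6), where the usual passenger outnumbered the guide 298 to 132. In the salt library it held 25.9% (18.2 to 34.8), with 30 reads against 86. The ratio of 3p to 5p reads was 6.47-fold lower (3.99 to 10.6). The second 5p sequence also stands under the ahy precursor number, so its reads cannot be assigned to a single hairpin.

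**Figure D2:**
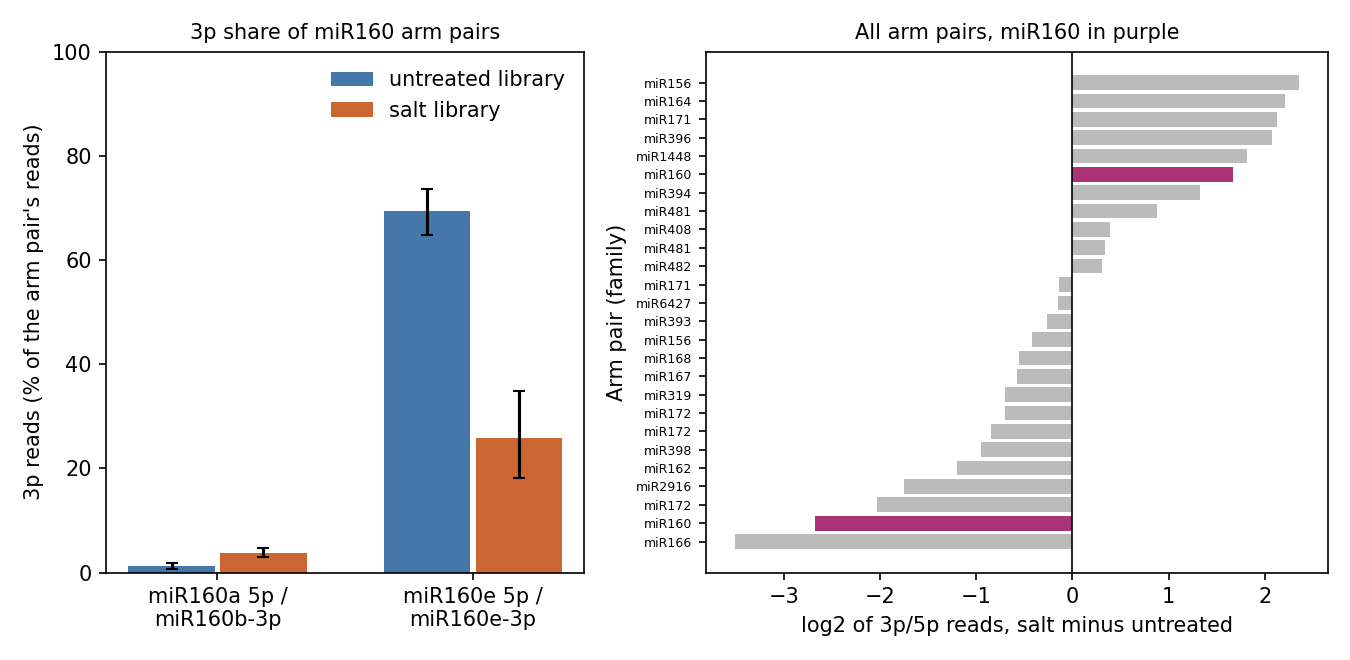
Left, 3p reads as a percentage of each miR160 arm pair's reads in the 2 libraries, with exact 95% intervals as bars; right, log2 of the 3p to 5p read ratio, salt minus untreated, for 26 arm pairs, with 0.5 read added to each arm. The miR160 pairs, in purple, lie at 1.67 and -2.68, on opposite sides of 0.

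Other arm pairs shifted as well. Among 26 arm pairs of numbered families with enough reads, the 3p to 5p ratio was at least 2-fold higher with salt in 26.9% and at least 2-fold lower in 19.2%. The ptc-miR160a pair ranked 6 from the highest, at 1.67 on the log2 scale. The ptc-miR160e pair ranked 2 from the lowest, at -2.68, behind the miR166 pair at -3.51. The 5 pairs above the ptc-miR160a pair reached 2.36, so no shift upward was as large in size as the downward shift of the ptc-miR160e pair.

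The sums below count the second 5p form under each of its names. Summed over its entries, miR160 had a level of 528 RPM without salt and 2896 RPM with salt, a 5.49-fold higher share (5.18 to 5.82). With each distinct sequence counted once the levels were 499 and 2779 RPM, 5.57-fold higher (5.24 to 5.91). The 5p sum was 6.01-fold higher (5.65 to 6.39) and carried nearly all of the higher family share. The 3p sum was 2.03-fold higher (1.61 to 2.54), joining members that differed in direction. It dropped to 0.64 log2 without miR159 in the total and to 0.048 without the 5 most abundant entries, and passed 2-fold under only 2 of 6 scalings. The 3p arm made up 13.2% of miR160 reads in the untreated library (11.9 to 14.6) and 4.89% in the salt library (4.01 to 5.90). With each distinct sequence counted once it made up 14.0% (12.6 to 15.4) and 5.10% (4.18 to 6.14).

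The family ranked 4 of 43 by its log2 ratio of 2.45, and kept rank 4 under all 6 scalings, with values from 1.48 to 2.67. Among all 43 families 30.2% were called higher and 16.3% lower. By level it ranked 29 without salt and 17 with salt. The families with the nearest ratios over these 2 libraries were miR2916 at 2.24, miR168 at 2.21 and miR156 at 3.03. Likeness here means only the distance between log2 ratios from 1 library each.

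The sums of the other auxin families lay within 2-fold with the listed total. miR167, which in Arabidopsis acts on ARF6 and ARF8, stood at 487 and 705 RPM, 1.45-fold higher (1.31 to 1.59). miR390, which triggers the TAS3 small RNAs against ARF2, ARF3 and ARF4, was 1.07-fold higher (1.01 to 1.13). miR393, which acts on the TIR1 and AFB auxin receptors, was 1.22-fold lower (1.14 to 1.32). The signs of miR167 and miR390 turned with the scaling, reaching -0.44 and -0.88 log2, whereas miR393 stayed below 0 and passed 2-fold lower at its lowest, -1.27 log2.

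**Figure D3:**
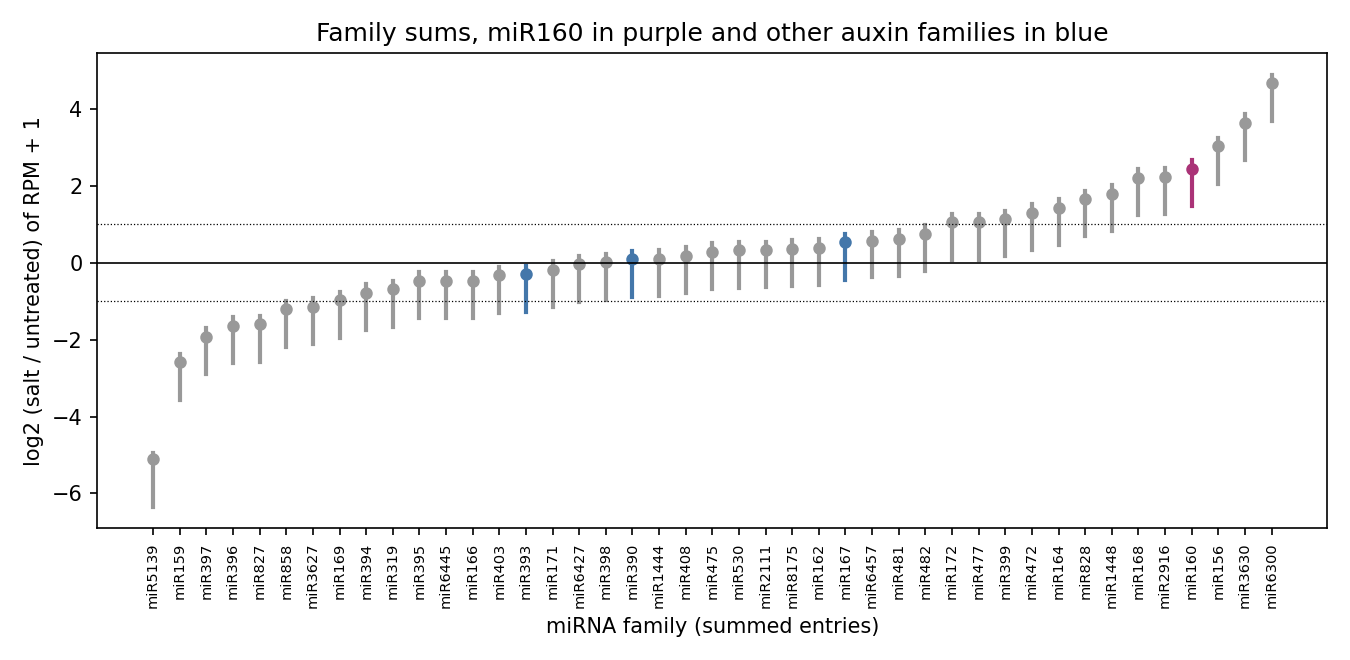
Family sums as log2 of salt over untreated RPM + 1 for 43 families, with points for the listed total and lines spanning 6 scalings; dotted lines mark 2-fold. miR160 (purple) lies at 2.45 with a span of 1.48 to 2.67, and miR167, miR390 and miR393 (blue) lie between the dotted lines with the listed total.

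The degradome pairs of miR160 were almost wholly with auxin response factors. Of 45 pairs, 39 (86.7%) carried an ARF symbol, and no pair of any other family did, 0 of 936. These counts list the 12 sites of the second 5p form under each of its names. With each symbol and position counted once 27 of 32 (84.4%) were in ARFs. That count also merged ARF18 position 1834, listed for ptc-miR160a with 235 reads and for the second 5p form with 6. Over the whole table ARF symbols made up 3.98% of pairs. The symbols are as deposited, with no transcript identifier, and target sequences were not used here. By symbol, with both names counted, 22 pairs were with ARF18, 9 with ARF17, 3 each with ARF16 and ARF8, and 1 each with ARF10 and ARF2. ARF18 is a known miR160 target in rice. ARF8 and ARF2 are known in Arabidopsis as targets of miR167 and of TAS3 small RNAs.

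ptc-miR160a had 18 listed sites, of which 17 were in ARFs. All 17 had an alignment score of at most 1, where lower means better pairing, against 4.28% of all pairs in the table. Of all miR160 pairs, 37.8% scored that low. The best scores, 0.5, were those of 5 ARF17 sites. Each of the 17 ARF sites had at least 36 degradome reads. These were the only miR160 pairs with at least 10 reads, 37.8% of the 45, against 42.8% of all pairs in the table. The highest, 237 reads, was exceeded by 46 pairs, all of miR393, miR172 or miR1448.

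The reads at the 17 sites fell into 4 sets of near-identical counts. The first set held 9 sites, 7 in ARF18 and 1 each in ARF16 and ARF8, with 235 to 237 reads each. The second held 2 ARF17 sites with 80 reads each, and the third 3 further ARF17 sites with 39 reads each. The last held 1 site each in ARF10, ARF18 and ARF2, with 36 reads each. Sites of a set differed in position along their transcripts, for example 736, 1186 and 1834 among the ARF18 sites of the first set.

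The second deposited value, headed TPB, shows how far these counts overlap. Its value for a single read was at most 52.7. In units of that largest value, all 981 pairs had values that are sums of whole fractions, as when each read is divided evenly between 1 to 10 places (whole multiples of the smallest common step, within a tolerance of 0.01). In these units the first set summed to 237 reads, about the raw count at each of its 9 sites. The second summed to 77, the third to 37 and the last to 36. Together the 17 ARF sites held 387 divided reads against 2509 raw reads, so a sum of raw counts would be 6.48-fold higher. The number of places per read was 8.93 to 8.98 in the first set of 9 sites, 2.08 in the second of 2, 3.16 in the third of 3 and 3 in the last of 3. In the ARF17 sets of 2 and 3 sites, the number of places, 2.08 and 3.16, exceeded the number of sites. Read this way, some reads of each ARF17 set also matched places outside that set. Whether the 2 ARF17 sets share these reads was not tested, so the 4 sets need not be separate cleavage signals. The data also cannot tell cleavage of the ARF8 entry from that of ARF18 and ARF16. Nor can they tell cleavage of the ARF2 entry from that of ARF10 and ARF18.

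**Figure D4:**
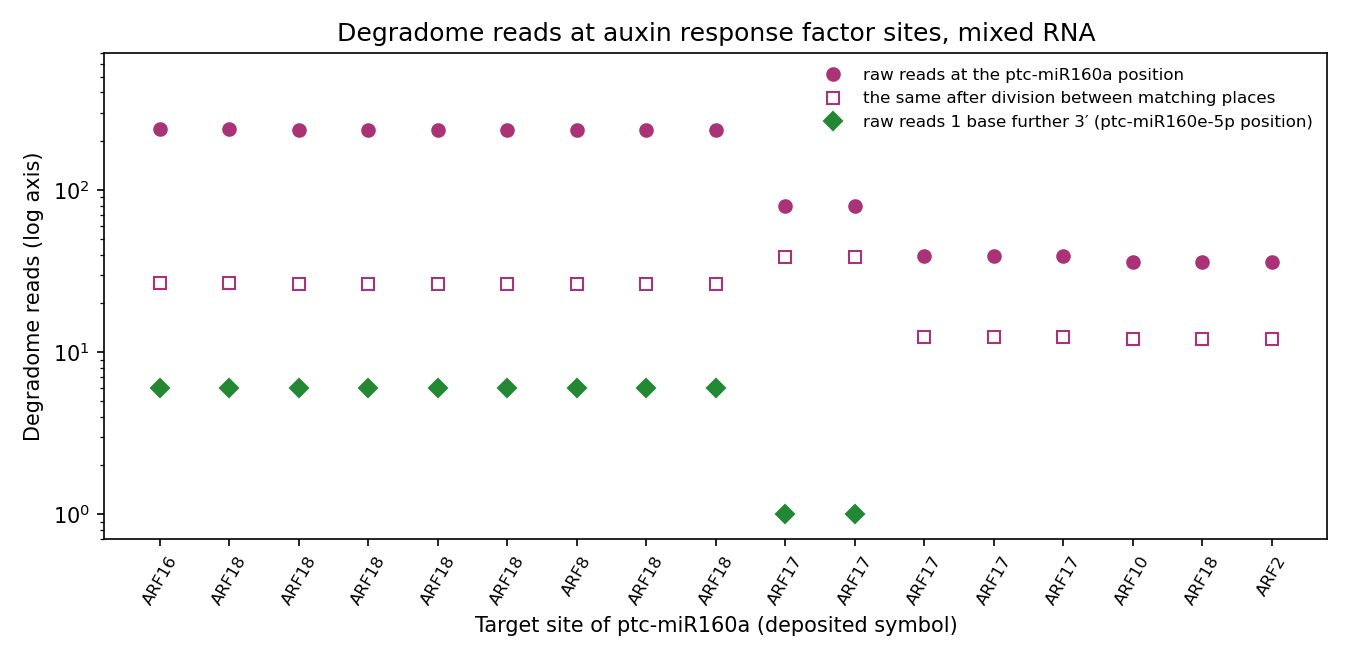
Degradome reads (log axis) at the 17 ARF sites of ptc-miR160a, ordered by raw reads: filled circles are raw reads, open squares the reads after division between matching places, and diamonds raw reads at the neighbouring position assigned to ptc-miR160e-5p. Raw counts form 4 levels at 235 to 237, 80, 39 and 36, and the neighbouring position has 6 reads or 1 read where it is listed.

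Cut positions were counted from the 3′ end of the aligned range, where a fully aligned miRNA begins. By this count the cut lay opposite base 10 at all 18 ptc-miR160a sites and at 43 of the 45 miR160 pairs (95.6%). Over the whole table the share was 88.0%. The second 5p form had 12 sites under each of its names, 11 of them in ARFs, all with a score of 2. Each of these 11 lay 1 base 3′ of a ptc-miR160a site with the same symbol, matched by symbol and position alone, as the shifted start of this form (above) places its base 10. Reads at the neighbouring positions were few, 6 at each of 9 sites and 1 at each of 2 ARF17 sites. In divided units the 9 sites summed to 6 reads and the 2 ARF17 sites to 1, as when the same reads are listed at each site. At the ARF18 site with ptc-miR160a reads at position 1186, 236 reads ended there and 6 at position 1187, so 97.5% (94.7 to 99.1) lay at the ptc-miR160a position. Over the 11 paired sites this share ran from 97.5% to 98.8%, but these sites are not separate observations. The 6 sites of the third and last sets had no neighbouring site listed. Reads carry no mark of the miRNA that guided a cut, so the form behind a given read cannot be told from these data.

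Only 6 miR160 pairs carried no ARF symbol, and all rested on few reads. Of these, 4 had no symbol at all, so their genes are not known. ptc-miR160a had 1 read in SEC15B, named for a subunit of the exocyst complex in secretion, at a score of 2.5. Both names of the second 5p form had the same site without a symbol, with 3 reads and a score of 4. The 3p entry ahy-miR160-3p had 3 sites of 1 read each, the only symbol being SPBC2A9.03, with scores of 3.5 to 4. By the count above, 2 of these were cut opposite base 11 rather than 10. Aligned ranges at the SEC15B site and these 3 sites were 20 bases for miRNAs of 21, so the counted base need not be the miRNA base there. No site was listed for ptc-miR160b-3p or ptc-miR160e-3p, the passenger strands with more reads.

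For the other auxin families, miR393 had 18 of 20 distinct sites in TIR1 or AFB genes, with up to 1137 reads. miR167 had 2 sites of 1 read each and miR390 had 6 sites with 1 to 3 reads, and 0 of these 8 carried an ARF or TAS3 symbol.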

How the data were processed

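The authors deposited estimated counts per mature miRNA sequence, which the file headers call raw. Counts of all miR160 entries were whole. The degradome table gave raw counts of reads per cleavage position, an alignment score of 0.5 to 4 for miR160 pairs, and a signal headed TPB, which the header does not define, as deposited. Trimming, mapping and calling tools are not given in the sources used here. Library columns naming 0 and 2 days were matched to samples by title. Levels were scaled by the listed total, which is not the full depth. Intervals were exact (Clopper-Pearson, and its conditional form for ratios), computed with SciPy 1.17.1 and tested on simulated data. Intervals and floors (3 reads for a count of 0) cover counting error only, since PCR copies are not independent molecules. The hairpin was folded with RNAfold 2.7.2.

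Arm pairs were consecutive entries with the same precursor number, predicted entries aside, with at least 50 reads in each library and 20 per arm, a rule written after the data were seen. Read sets joined sites of an entry with the same score and counts within 2 reads. Every miR160 entry and every symbol of its pairs is named, as are the 3 families of nearest ratio. Members and lists were chosen with earlier results of these data known. Alternatives covered scaling, pseudocount, level minimum, fold threshold, identical sequences, alignment score and read minimum.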

Additional observations from a re-analysis of the deposited data

How the results depend on the processing

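No paired analysis was possible because each condition had 1 library. In this order, without miR159 in the total, without the 5 most abundant entries, with distinct sequences once in the total, without the miR6300, miR2916, miR8175, miR5139 and miR5141 families, and with the median ratio, the log2 ratio of the family sum was 2.07, 1.48, 2.28, 2.67 and 2.11, and that of the 5p sum 2.21, 1.61, 2.41, 2.81 and 2.24. The 3p sum gave 0.64 without miR159, 0.048 without the 5 most abundant entries, 0.84 with distinct sequences once and 0.67 with the median ratio. It thus passed 2-fold under 2 of 6 scalings, and its 1.01 did not pass a 4-fold threshold. At 4-fold 2 entries were called higher. With a pseudocount of 5 RPM in place of 1, the log2 ratio of ptc-miR160b-3p was 3.41 rather than 4.09. ptc-miR160e-3p became the 1 entry called lower without miR159, without the 5 most abundant entries, or at 1.5-fold. Restricting the degradome to scores of at most 1, or to at least 10 reads, left 17 pairs, all in ARFs. ARF symbols made up 100% of pairs at scores of at most 1 or 2 and with at least 5 or 10 reads. None of the alternatives reversed a sign among these miR160 results, whereas the signs of the miR167 and miR390 sums turned with the scaling (above). The cause of each move was not tested beyond the fewer reads or pairs a setting keeps. The salt library's depth, 1.36 RPM per read, limits entries of few reads.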

Other observations

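Division of degradome reads between places was not particular to the ARF sites of miR160. Among all 981 pairs, 71 (7.24%) held reads that were not divided, and the number of places reached 10. The miR160 pairs with undivided reads were a site without a symbol of the second 5p form, listed under both of its names with 3 reads, and a site without a symbol of ahy-miR160-3p with 1 read.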
